A study of Mus musculus with 5 samples.

Results

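H2A.Z occupancy was compared between the heart of mice after transaortic coarctation (TAC) and the heart of sham-operated mice. All 31098 regions of the authors' H2A.Z table were used, of 39542 regions in the series, where the other 8444 belong to the H2A.Z chaperone ANP32E. Both libraries were made from whole heart of male C57BL/6 mice aged 12 weeks, 1 library after a sham operation and 1 after TAC for 4 days, precipitated with anti-H2A.Z (ActiveMotif 39113). TAC narrows the aorta and makes the left ventricle pump against a higher pressure. The immunoprecipitation, libraries and sequencing were done by a service company, and the labels describe the single input library as pooled heart. The labels name no transgene or mutant allele and do not give the number of hearts behind each library. With 1 library a side there is no replicate spread and no test, so every difference describes these libraries and not the conditions.

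H2A.Z is a variant of histone H2A. In textbook accounts it sits in nucleosomes beside the starts of active and poised genes and at enhancers, is placed there by the SRCAP and p400 complexes, and is taken out by ANP32E and INO80. CpG islands, stretches rich in the CG dinucleotide, cover many promoters of widely expressed genes and usually carry H2A.Z. A whole heart mixes cardiomyocytes with endothelial cells, fibroblasts, pericytes and leukocytes, so fewer cells of a type and less H2A.Z per cell cannot be told apart. H2A.Z regions lay at the promoters of 5 of 5 endothelial, 2 of 7 cardiomyocyte, 2 of 4 fibroblast, 2 of 4 smooth muscle and pericyte, 0 of 4 leukocyte and 1 of 3 neuronal marker genes. The cardiomyocyte markers with a region were the troponin genes Tnnt2 and Tnni3, while Myh6, Myl2, Actc1, Ryr2 and Ttn had none at the start.

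Each region carried an average signal over its length and a peak signal, the height at its summit, in the authors' units. For each measure the ratio was log2((TAC + 1)/(sham + 1)), and a region was counted as higher or lower in TAC from a 1.5-fold difference on that scale. The peak ratio minus the average ratio gave the disagreement, which is above 0 where the summit gained on the region around it. A scale factor on 1 library moves both ratios alike and leaves this difference as it is, apart from the added 1.

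The promoter windows of 5 genes are shown because their regions stand for the ways in which the measures behaved. At Adrb1 the peak was 1.5-fold higher in the TAC library, and the average, at a log2 ratio of 0.50, fell short of 1.5-fold. At Xirp2, whose region was called in sham only, both were lower, a direction that is not independent of the call. At Gclm and Tie1 the peak alone was also 1.5-fold higher, beside smaller average log2 ratios of 0.041 and 0.33. At Erf the peak was lower, though by under 1.5-fold, beside a level average. The sequences run from 250 bases before to 50 bases after the start, are taken from RefSeq on GRCm38.p6, read along the gene's own strand, and have every CG in capitals.
Adrb1 (chr19:56721867-56722166, plus strand): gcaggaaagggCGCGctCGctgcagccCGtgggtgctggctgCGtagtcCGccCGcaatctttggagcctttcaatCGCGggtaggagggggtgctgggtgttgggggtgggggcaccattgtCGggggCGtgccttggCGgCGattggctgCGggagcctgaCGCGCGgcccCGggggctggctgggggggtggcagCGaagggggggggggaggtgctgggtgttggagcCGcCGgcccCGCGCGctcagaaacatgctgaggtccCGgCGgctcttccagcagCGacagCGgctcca
Gclm (chr3:122245307-122245606, plus strand): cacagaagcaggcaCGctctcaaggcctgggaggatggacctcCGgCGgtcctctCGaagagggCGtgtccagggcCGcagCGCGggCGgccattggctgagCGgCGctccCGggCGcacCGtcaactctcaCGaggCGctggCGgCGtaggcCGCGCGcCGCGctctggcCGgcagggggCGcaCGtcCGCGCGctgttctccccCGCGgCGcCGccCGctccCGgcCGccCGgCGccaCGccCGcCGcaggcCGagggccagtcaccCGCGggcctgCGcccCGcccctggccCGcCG
Erf (chr7:25250709-25251008, minus strand): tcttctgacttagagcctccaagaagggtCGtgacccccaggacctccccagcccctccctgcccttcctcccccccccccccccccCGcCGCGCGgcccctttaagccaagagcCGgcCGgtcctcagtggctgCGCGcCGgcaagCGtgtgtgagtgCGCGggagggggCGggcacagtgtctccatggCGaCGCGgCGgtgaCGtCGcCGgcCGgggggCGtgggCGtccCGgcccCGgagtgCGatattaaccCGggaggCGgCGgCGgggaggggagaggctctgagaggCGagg
Tie1 (chr4:118489800-118490099, minus strand): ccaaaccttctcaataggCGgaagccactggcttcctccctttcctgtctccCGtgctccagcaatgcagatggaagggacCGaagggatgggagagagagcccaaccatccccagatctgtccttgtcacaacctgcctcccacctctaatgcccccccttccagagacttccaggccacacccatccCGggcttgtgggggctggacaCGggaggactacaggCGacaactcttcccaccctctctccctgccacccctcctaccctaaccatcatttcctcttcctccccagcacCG
Xirp2 (chr2:67445752-67446051, plus strand): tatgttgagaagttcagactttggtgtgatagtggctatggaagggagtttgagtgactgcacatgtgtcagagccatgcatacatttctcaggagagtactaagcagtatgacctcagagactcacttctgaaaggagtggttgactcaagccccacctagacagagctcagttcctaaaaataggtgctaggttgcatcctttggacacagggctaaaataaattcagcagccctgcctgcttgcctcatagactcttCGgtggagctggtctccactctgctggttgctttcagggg
The windows held 28 CG at Adrb1, 48 at Gclm, 32 at Erf, 7 at Tie1 and 1 at Xirp2. Over 27025 RefSeq promoter windows, 1 per gene symbol, the median was 7 CG. At least as many CG as at Gclm were found in 1.19% of the windows, as at Erf in 9.24%, as at Adrb1 in 14.0%, as at Tie1 in 52.3% and as at Xirp2 in 94.2%. The Xirp2 window lay only partly within its region.

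The average and the peak gave different pictures of the same regions. The median average signal was 15.7 in both libraries, and the median log2 ratio of the average was 0.014 (SD 0.29 over regions). The median peak signal was 37 in sham and 39 in TAC, with a median log2 ratio of 0.093 (SD 0.34). By the average, 540 regions (1.74%) were at least 1.5-fold higher in TAC and 1218 (3.92%) lower. By the peak, 1808 (5.81%) were higher and 1385 (4.45%) lower. Lower regions were thus the more numerous by the average over all regions, but not in the stronger 50% of regions, where 31 were higher and 19 lower. Higher regions were the more numerous by the peak. With each measure centred on its own median the peak counts became 1024 higher and 2026 lower, so the excess of higher peaks rests on the general shift of the peak.

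The peak also differed relative to the average of its own region. The median ratio of peak to average signal, taken without an added constant, was 2.37 in sham and 2.51 in TAC, and it was higher in TAC in 66.2% of regions. Since the depth of the libraries is unknown, a difference in the form of the signal and one in its counting noise cannot be told apart. The disagreement had a median of 0.082 on the log2 scale and an SD of 0.21 over regions. Its median lay between 0.071 and 0.093 on each of 19 autosomes and was 0.090 on the X chromosome. The X chromosome stood slightly above the autosomes in both measures. Its medians were 0.062 for the average and 0.16 for the peak over 575 regions, while the highest autosomes reached 0.030 and 0.12. Its regions also differed in make-up: 64.5% lay at a promoter and 52.9% held a CpG island, against 37.4% and 35.1% over all regions. Whether this make-up accounts for the offset was not tested. In the ANP32E table of the series the median disagreement was -0.036.

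**Figure D1:**
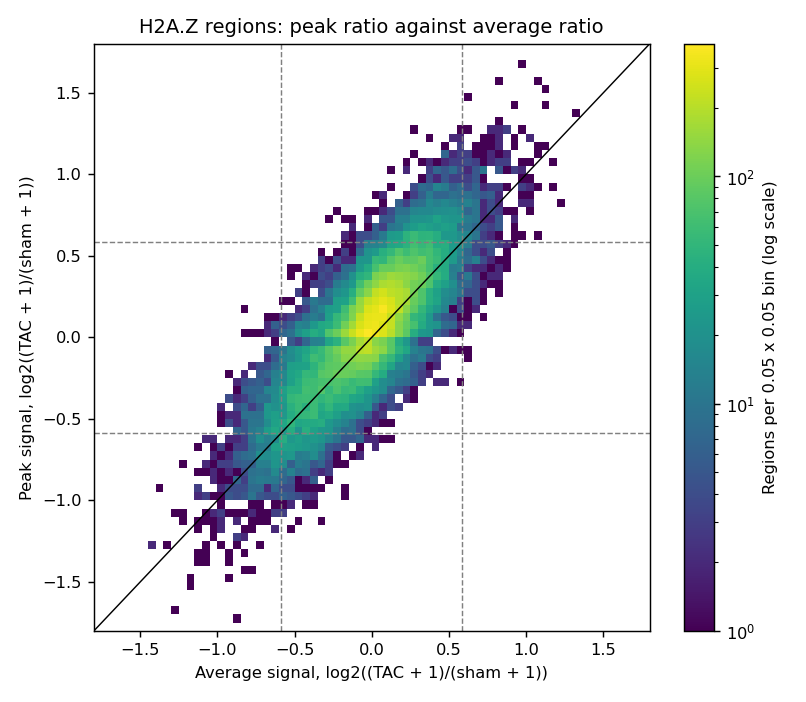
Peak log2 ratio (vertical) against average log2 ratio (horizontal) of TAC over sham for the 31098 H2A.Z regions, shaded by the number of regions per bin on a log scale, with dashed lines at 1.5-fold and a solid line of equality. The cloud lies mostly above the line of equality, in keeping with the 66.2% of regions whose ratio of peak to average was higher in TAC.

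Past 1.5-fold, 2849 regions were counted by 1 measure only, and by both measures 386 were higher and 665 lower. No region was past 1.5-fold in opposite directions. The peak alone was higher in 1422 regions and lower in 720, and the average alone was lower in 553 and higher in 154. Over all regions, 35.1% held a CpG island, 37.4% lay at a promoter and 76.9% were called in both libraries. Of the regions higher by the peak alone these shares were lower, at 21.9%, 23.0% and 56.3%. Of the 386 regions higher by both measures they were lower still, at 11.9%, 11.9% and 11.7%. Of the regions lower by the average alone, 0.362% held an island and 2.35% lay at a promoter. Another 50.3% lay elsewhere within a gene, and 72.2% were called in sham only. The 665 regions lower by both measures were similar, at 0.451%, 1.05%, 50.1% and 86.2% in turn. For those lower by the peak alone the shares were 1.67%, 3.75%, 46.0% and 54.7%. The share called in sham only is not independent of the direction.

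Opposite signs were common but small. They were found in 6508 regions (20.9%), with a lower average and a higher peak in 4728 and the reverse in 1780. The smaller of the ratios had a median size of 0.053 and reached at most 0.45, and in 1323 regions both ratios were over 0.1 in size. After centring each measure on its median the directions were level, at 3535 and 3556. In 1220 regions (3.92%) the peak values of the libraries were equal.

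Region length moved with how often the signs differed more than with the typical gap. The median disagreement was 0.059 in the 5851 regions of 1000 to 2000 bp, 0.086 in the 17871 of 2000 to 5000 bp, 0.087 in the 6118 of 5000 to 10000 bp and 0.086 in the 1232 of 10000 bp and over. Its SD went from 0.24 in the regions of 1000 to 2000 bp to 0.18 in the longest class. A lower average with a higher peak was found in 7.83%, 14.5%, 21.8% and 28.6% of these classes in turn, while the reverse stayed between 4.07% and 7.14%. The 26 regions under 1000 bp had a median of -0.053, with an SD of 0.22. Signal level moved with length: the median over the classes from 1000 bp up was 10.8, 15.7, 22.2 and 23.3.

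CpG islands separated the average counts more than the disagreement. Of the 1218 regions with a lower average, 1213 held no island, 5 held 1 island and none held more. Among 20196 regions without an island the median disagreement was 0.071, among 9835 with 1 island 0.097, among 855 with 2 islands 0.076 and among 212 with 3 or more 0.068. The peak was higher in 337 and lower in 14 of the regions with 1 island, against 1451 and 1370 of those without. Over 10 equal classes of mean signal, numbered from the weakest, the median with an island was above that without in 5 and below it in 5. The difference ran from -0.053 in class 1, where only 76 regions held an island, to 0.024 in class 7. In regions of 2000 to 5000 bp they were 0.098 and 0.075.

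The number of merged intervals tracked the calls. A region of 1 interval was always called in 1 library only, so its direction is not independent of the call and its ratio is no separate finding. The 3418 regions called in TAC only had medians of 0.34 for the average and 0.39 for the peak, and the 3772 called in sham only had -0.43 and -0.36. The disagreement was close in both, at 0.052 and 0.065. It was 0.058 over all 7190 regions of 1 interval, 0.088 in 22494 regions of 2 intervals, 0.090 in 1127 of 3 intervals and 0.10 in 287 of 4 or more. In the 23908 regions called in both libraries 71 were higher and 246 lower by the average, while 845 were higher and 417 lower by the peak.

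**Figure D2:**
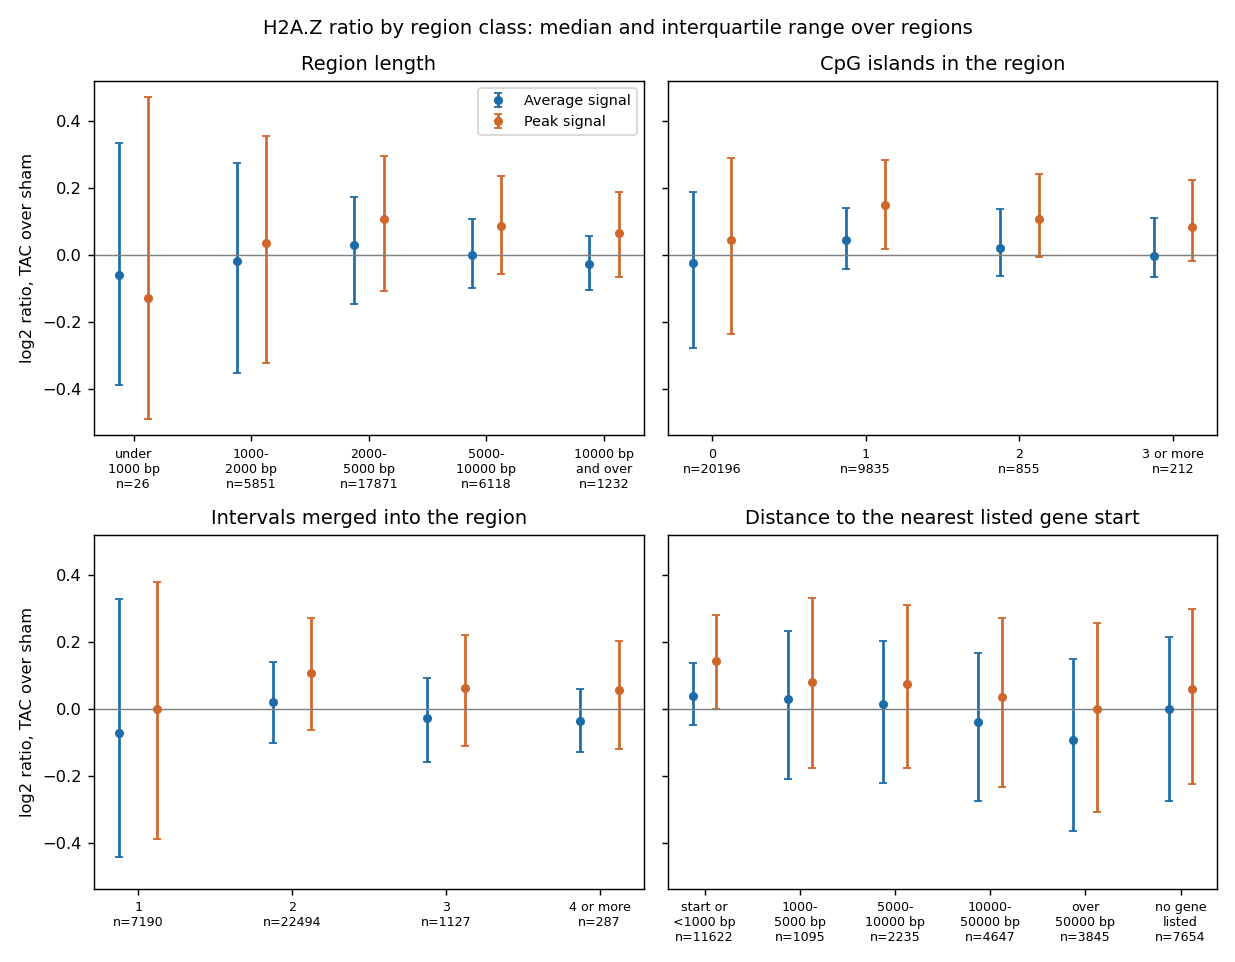
Median log2 ratio of TAC over sham for the average (blue) and the peak (orange) by region length, CpG islands, merged intervals and distance to the nearest listed gene start, with bars for the interquartile range over regions and the number of regions under each class. The peak lies above the average in every class but the 26 regions under 1000 bp.

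Distance to the gene start separated the ratios themselves. In the 11622 regions over a start or within 1000 bp of it the medians were 0.040 for the average and 0.14 for the peak, with a disagreement of 0.097. In the 3845 regions over 50000 bp away they were -0.092 and 0.000, with a disagreement of 0.078. Between these, the disagreement was 0.057 at 1000 to 5000 bp, 0.069 at 5000 to 10000 bp and 0.072 at 10000 to 50000 bp, and it was 0.066 where no gene was listed. The peak was higher in 373 and lower in 34 of the regions at starts, against 278 and 337 of those over 50000 bp away. By the average the same classes held 60 higher and 20 lower, and 104 higher and 343 lower. Regions within genes but away from starts and without an island had medians of -0.093 and -0.027 over 7651 regions.

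Signal level moved with all of these classes. The median disagreement was 0.058 in the weakest of the 10 signal classes, 0.106 and 0.107 in classes 8 and 9 and 0.088 in the strongest. Its SD over regions was smaller in each stronger class, from 0.253 in the weakest to 0.128 in the strongest. Islands were in 2.44% of the regions of the weakest and 96.4% of the strongest class. The stronger 50% of regions, from a mean signal of 15.4, held 31 higher and 19 lower by the average and 396 higher and 86 lower by the peak. Whether level, island or distance accounts for the differences between classes was not tested.

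**Figure D3:**
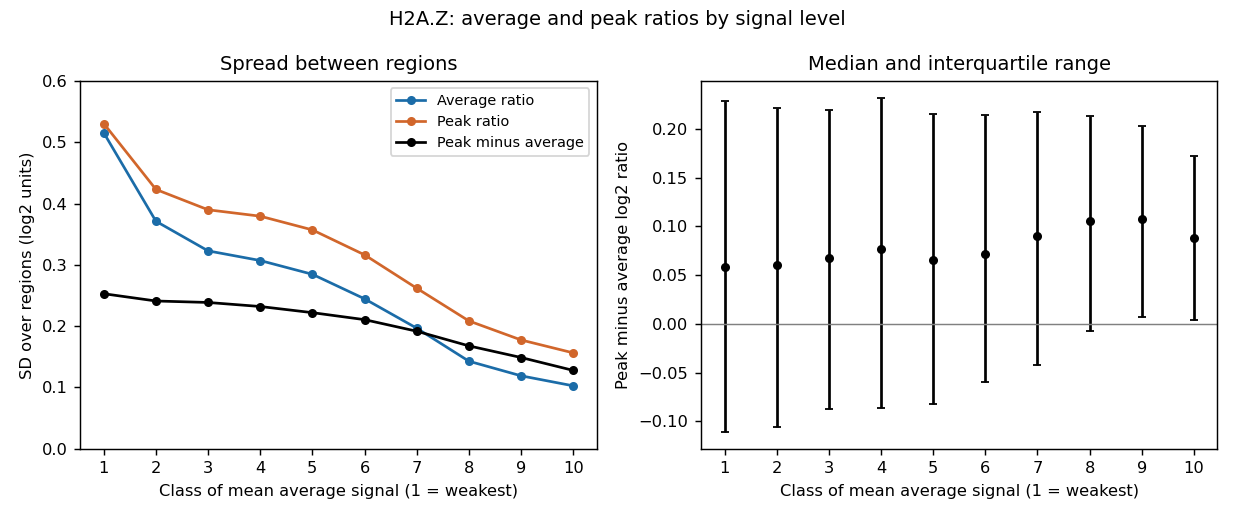
Left, the SD over regions of the average ratio, the peak ratio and the peak minus average ratio (log2 units) by class of mean average signal; right, the median and interquartile range of peak minus average. The SD of peak minus average goes from 0.253 to 0.128, while its median is above 0 in all 10 classes.

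Promoters made up 66.8% of the stronger 50% of regions. A promoter region was listed for 13763 genes, with medians of 0.035 for the average and 0.136 for the peak, and the ratio of peak to average was higher in TAC for 72.8% of them. By the average, 60 promoters (0.436%) were higher and 20 (0.145%) lower. By the peak, 395 (2.87%) were higher and 34 (0.247%) lower. The genes named next come from the stronger 50% of promoters, from a mean signal of 28.0.

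The promoters named first were the 6 with the highest peak ratios. Being chosen by the peak favours an average ratio below the peak ratio, so that order is no separate finding. At Gclm, the modifier subunit of the enzyme that starts glutathione synthesis, the region chr3:122243273-122248236 had a peak of 72 in sham and 116 in TAC and an average of 28.0 and 28.8. The log2 ratios were 0.68 and 0.041, the widest gap of these promoters. Trmt11, a tRNA methyltransferase subunit, had peaks of 73 and 121 beside averages of 26.3 and 29.9. Prmt3, an arginine methyltransferase, had peaks of 77 and 124 and averages of 28.7 and 32.5. Cdc20, the activator of the anaphase-promoting complex, had peaks of 85 and 135 and averages of 27.1 and 32.4. In these promoters the summit was over 1.5-fold higher and the average under 1.5-fold. Aatf, which encodes an apoptosis-antagonizing transcription factor, had the same form, with peaks of 98 and 155 and averages of 30.2 and 34.1. The averages were not level, except at Gclm. Their log2 ratios at Trmt11, Prmt3, Cdc20 and Aatf, between 0.17 and 0.25, lay above the upper quartile of all promoters, 0.129. Tmeff2, a membrane protein with follistatin-like domains, was the exception among the 6 highest, with peaks of 52 and 83, averages of 24.4 and 37.1 and an average log2 ratio of 0.583, just under 1.5-fold.

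A lower average beside a higher peak was seen at other strong promoters, which were chosen for their high disagreement. Itm2b, which encodes a membrane protein linked to familial dementia in humans, had averages of 31.7 in sham and 28.1 in TAC and peaks of 99 and 131. Cecr2, a bromodomain chromatin remodelling protein, had averages of 31.5 and 30.9 and peaks of 84 and 121. The region shared by Nrm, a protein of the nuclear envelope, Ppp1r18 and 5530401N12Rik had averages of 34.7 and 29.3 and peaks of 151 and 187. At Itm2b and the Nrm region the summit was higher and the region as a whole lower in the TAC library, each by under 1.5-fold. At Cecr2 the summit was higher over a nearly level average, with a log2 ratio of -0.029. The region of Nemf, a ribosome quality control factor, and Rn7s2, a copy of the 7SL RNA gene, had averages of 29.5 and 27.5 and peaks of 89 and 129. As 7SL RNA has many near-identical copies in the genome, the assignment of reads to this region is uncertain.

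The lowest peak ratios were smaller in size than the highest as deposited. The median peak ratio of all promoters was itself 0.136, so this order depends on where the ratios are centred. At Erf, an ETS family repressor, the region chr7:25244678-25253590 had a peak of 149 in sham and 106 in TAC and an average of 36.7 and 35.3, with log2 ratios of -0.49 and -0.053. Usp30, a deubiquitinase of mitochondria, had peaks of 117 and 87 and averages of 30.8 and 30.4. Nipbl, which loads cohesin onto DNA, had peaks of 114 and 87 and averages of 34.7 and 34.2. At these promoters, chosen by a low peak ratio or a low disagreement, the summit alone was lower. Nat10, an RNA acetyltransferase, had peaks of 150 and 119 beside averages of 39.0 and 39.5. Lpin3, a phosphatidate phosphatase, was lower in both, with peaks of 92 and 67 and averages of 33.2 and 28.5. The region between Trp53, the tumour suppressor p53, and Wrap53 had peaks of 121 and 90 and averages of 46.9 and 37.7, and Tmem183a and Ier5l completed the 6 lowest with log2 peak ratios of -0.44 and -0.43. None of these peaks was 1.5-fold lower. At Tgif2, a homeodomain repressor that shares its region with Gm14230, and at the kinase gene Hunk the order was turned: the averages were higher in TAC (29.4 and 34.2 at Tgif2, 30.4 and 34.3 at Hunk) and the peaks lower (88 and 77, 79 and 70).

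Where both measures passed 1.5-fold in the stronger regions with a listed gene, 18 were higher and 10 lower. Of the 6 higher regions with the largest ratios, those at Col18a1 and Rps6ka1 were called in both libraries. The promoter region of Col18a1, the collagen that yields endostatin, had averages of 17.1 in sham and 28.6 in TAC and peaks of 42 and 73. A region inside Rps6ka1, the kinase RSK1, had averages of 15.3 and 25.7 and peaks of 35 and 60. The other 4 were called in TAC only, so their direction is not independent of the call. Of these, an island region inside Crmp1, a collapsin response mediator, had averages of 9.92 and 21.1 and peaks of 27 and 49, and the promoter region of Fam43b had averages of 17.1 and 28.3 and peaks of 42 and 73. Those inside Gabbr2, a GABA-B receptor subunit, and downstream of Ggnbp1 had average log2 ratios of 0.69 and 0.73 and peak ratios of 0.90 and 0.86.

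The 6 lower regions held no CpG island, were all called in both libraries and lay mostly away from gene starts. A region inside Tmem108, 41166 bp from its start, had averages of 20.8 in sham and 12.4 in TAC and peaks of 47 and 28. The promoter region of Phyhip, which encodes a phytanoyl-CoA hydroxylase interacting protein, had averages of 24.2 and 14.8 and peaks of 55 and 33. The regions inside Fam179a, Arl3 and Ccdc146 and downstream of Fam189a2 had average log2 ratios between -0.64 and -0.61 and peak ratios between -0.76 and -0.65. The log2 ratios of average and peak differed by at most 0.14 in these 6 regions, which were chosen for passing 1.5-fold in both. Over all 665 regions lower in both, the SD of the disagreement was 0.17.

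The opposite case, in regions chosen for opposite signs, was clearest in Fry and Mlf1. Within Fry, whose fly counterpart shapes cell protrusions, a region of 3402 bp had averages of 17.8 in sham and 13.6 in TAC and peaks of 30 and 40. At Mlf1, a gene named from a fusion in human myeloid leukaemia, the promoter region had averages of 17.2 and 14.2 and peaks of 33 and 55, a disagreement of 0.99. Thsd4, a microfibril protein of the ADAMTS-like family, held a region of 10875 bp with averages of 18.5 and 14.4 and peaks of 41 and 55. In these the summit stood higher over a lower region. Ppfibp2 and Mdga1 showed the same order, with average log2 ratios of -0.27 and -0.26 and peak ratios of 0.27 and 0.40. Dnajc21, a J-domain co-chaperone, showed the reverse, with averages of 14.7 and 17.9 and peaks of 61 and 51.

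**Figure D4:**
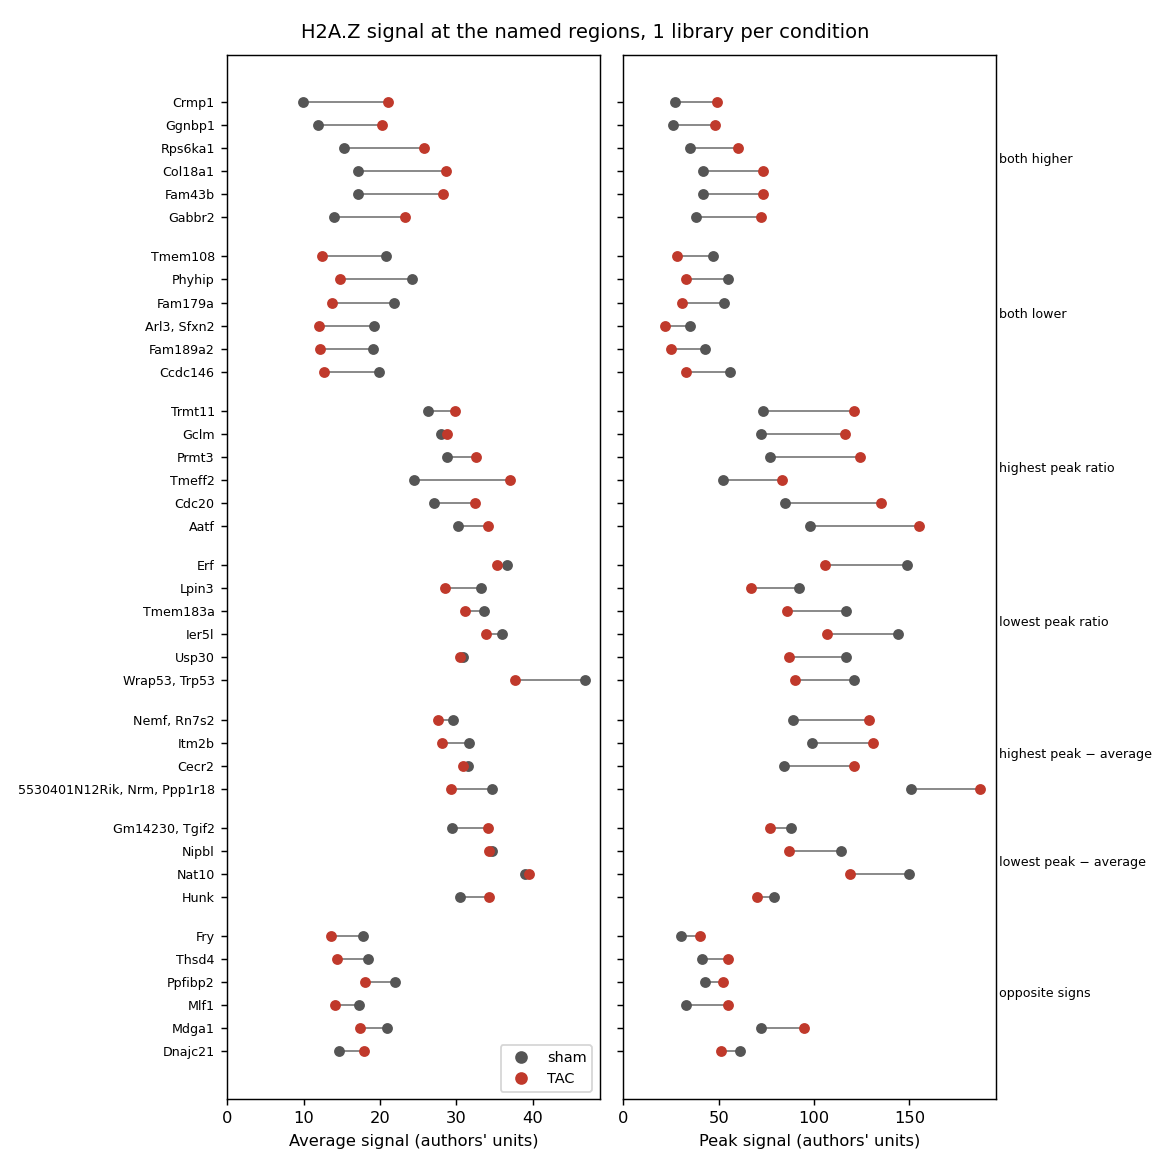
Average signal (left) and peak signal (right) in the authors' units at the named regions, with sham in grey, TAC in red and a line joining the libraries of a region. The groups were chosen by these same values. In the group of highest peak ratios the peaks differ by a larger ratio than the averages, which the choice favours. In the group of opposite signs the colours swap order between the panels, which follows from the choice.

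The 4 longest regions stayed under 1.5-fold in both measures. The longest region, 37559 bp on chromosome 12 with no listed gene, had averages of 25.8 and 24.5 and peaks of 80 and 90. The region of 33587 bp downstream of Slc38a9 had averages of 26.5 and 23.9 and peaks of 101 and 84. The others, a region of 32029 bp with no listed gene on chromosome 8 and one of 31600 bp at Mir339 and Gpr146, had peaks of 90 and 83 and of 126 and 128.

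Genes of the heart were followed by 19 lists, which were drawn up with earlier results of these data known. In all 19 lists the median peak ratio was above the median average ratio, and in 7 the median average was below 0 and the median peak above it. With both measures centred on their medians over all regions these counts were 11 and 2. Regions of 1 interval among the entries named for passing 1.5-fold were those of Cacna1c, Trdn, Xirp2, Cox6a2, Hoxd1 and Col6a3, each called in 1 library only, so their direction is not independent of the call. Of 526 entries with a promoter region, the average was at least 1.5-fold higher in 2 (0.38%) and lower in 4 (0.76%), against 0.436% and 0.145% of all promoters. The peak was higher in 13 (2.47%) and lower in 5 (0.951%), against 2.87% and 0.247%. The shares of higher entries lay near the background, and Myocd, a member of 2 lists, enters the 13 higher peaks from each. The shares of lower entries lay above the background, on only 4 entries by the average and 5 by the peak.

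Stress and contractile genes were mixed. Over 19 promoters of hypertrophy stress genes the medians were -0.018 by the average and 0.044 by the peak. The foetal and contractile genes Nppa, Nppb, Myh6 and Acta1 had no listed region. Myh7 had only a weak one upstream, called in sham only, with averages of 11.4 and 9.07 and peaks of 17 and 15. Ankrd1, a stress-induced cardiac ankyrin repeat protein, had 3 regions. The one over its start had averages of 13.3 in sham and 8.08 in TAC and peaks of 30 and 24. The one further into the gene had averages of 11.8 and 3.78 and peaks of 23 and 9, and was called in sham only. The upstream one was lower by less, with averages of 15.4 and 14.1 and peaks of 39 and 33. The regions thus ranged from log2 average ratios of -1.42 to -0.13. Xirp2, which binds actin at the intercalated disc, had averages of 12.3 and 7.12 and peaks of 22 and 11 over the region chr2:67445982-67447504 without an island, called in sham only. Mt1 and Mt2, neighbouring metallothionein genes, differed in order: the peak was 75 in sham and 67 in TAC at Mt1 and 69 and 89 at Mt2, beside averages of 24.7 and 26.7 and of 29.5 and 29.1.

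The median of 14 sarcomere promoters was -0.15 by the average and 0.019 by the peak, and the average was above 0 in 2 of them. Pdlim5, a Z-disc protein, had averages of 34.3 and 30.6 and peaks of 110 and 129. Tnnt2, cardiac troponin T, was lower in both, with averages of 15.0 and 11.5 and peaks of 36 and 23. Among 28 genes of calcium handling and ion channels the medians were -0.054 and 0.0056. Adrb1, the main beta-adrenergic receptor of the heart, lay in the region chr19:56719674-56725144 and had averages of 23.4 and 33.4 and peaks of 74 and 115, log2 ratios of 0.50 and 0.63, so only its peak passed 1.5-fold. Cacna1c, the L-type calcium channel, had averages of 13.5 and 8.79 and peaks of 29 and 13 in a region made of 1 interval. Trdn, triadin of the calcium release complex, had averages of 12.1 and 7.59 and peaks of 23 and 19, so only its average passed. Jph2, which holds the membranes of the calcium release unit together, had averages of 16.6 and 15.4 and peaks of 34 and 42. No member of the list passed 1.5-fold in both measures.

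Early response genes had the smallest median disagreement of the lists. In 30 immediate early promoters the medians were -0.064 and -0.036, the disagreement was 0.010 and 17 were above 0. Fos had averages of 32.9 and 31.2 and peaks of 147 and 128 over its start, Jun 37.4 and 36.8 and 121 and 120, and Myc 42.3 and 42.2 and 98 and 103. Jund had the most positive disagreement of the list, with averages of 39.6 and 34.1 and peaks of 168 and 172, and Dusp2 the most negative, with averages of 18.2 and 21.5 and peaks of 85 and 80. No member was past 1.5-fold in either measure.

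Among cardiac transcription factors the medians over 24 promoters were -0.023 and 0.090. Myocd, the myocardin coactivator of muscle genes, had averages of 13.4 and 13.7 and peaks of 23 and 37. Gata4 was level, with averages of 19.9 and 21.0 and peaks of 60 and 62 at its start. Hand2 had averages of 15.1 and 18.2 and peaks of 38 and 50 at its start, and 2 regions without an island around it in which the average was lower and the peak higher (13.1 and 10.8, 23 and 24 upstream; 21.9 and 19.6, 51 and 55 downstream). Mef2c had 6 regions inside the gene and none at the start. The 1 with an island had averages of 24.4 and 22.1 and peaks of 74 and 85. The region of 1269 bp had averages of 9.95 and 5.26 and peaks of 20 and 10, and that of 1739 bp averages of 10.4 and 6.68 and a peak of 18 in both. These regions of 1269 and 1739 bp were called in sham only, so their direction is not independent of the call. Neighbouring regions of 1 gene thus differed in both size and order.

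Homeobox genes, which set positional identity in the embryo, had the highest median average of the lists, 0.20 over 39 promoters, and a median peak of 0.28. The average was above 0 in 35 and the peak in 32, and the disagreement was only 0.026. Hoxd13 had averages of 14.5 and 15.5 and peaks of 30 and 52, and Hoxd1 averages of 11.1 and 18.5 and peaks of 31 and 44. In the first only the peak and in the second only the average passed 1.5-fold. Hoxb5, En1 and Dlx2 passed by the peak, at log2 ratios between 0.70 and 0.77. The list's median signal was 15.9, against 28.0 over all promoters.

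Replication-dependent histone genes had the lowest medians, -0.20 and -0.051, but their 40 promoters fell in only 16 regions. Hist1h2ad had averages of 22.3 and 19.1 and peaks of 52 and 65. Near-identical histone genes may share reads, which makes these values uncertain. Of 62 respiratory chain promoters the medians were 0.043 and 0.16. Atp5o, an ATP synthase subunit, had averages of 27.5 and 27.2 and peaks of 79 and 123, and Cox6a2, the muscle form of a cytochrome oxidase subunit, had averages of 12.7 and 7.92 and peaks of 28 and 15. Atp5o thus differed in its summit alone and Cox6a2 in both measures. In fatty acid oxidation genes the medians were -0.0033 and 0.16. Ppargc1a, the coactivator PGC-1 alpha, had averages of 16.0 and 15.2 and peaks of 35 and 45, while the nuclear receptor gene Esrrg had 22.4 and 17.0 and peaks of 71 and 42.

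Lists for cell types other than cardiomyocytes had median averages from -0.026 to 0.073 and median peaks from -0.0022 to 0.33. Over 25 endothelial promoters the medians were 0.053 and 0.14. Tie1, an endothelial receptor kinase, lay in the region chr4:118488852-118491288 and had averages of 12.1 and 15.4 and peaks of 19 and 35, and Emcn, the surface glycoprotein endomucin, had averages of 10.5 and 14.4 and peaks of 18 and 35. Gja4, a connexin of arterial endothelium, had a lower peak in TAC, with averages of 16.9 and 18.3 and peaks of 51 and 40. The endothelial genes past 1.5-fold by the peak were thus weak promoters without an island. Over 24 matrix and fibroblast promoters the medians were 0.069 and 0.14, and Col6a3 had averages of 8.36 and 11.8 and peaks of 14 and 23. Smooth muscle and pericyte genes had 8 promoters with medians of -0.026 and -0.0022, and leukocyte genes had only 3, at 0.062 and 0.21. The 11 neuronal promoters had the widest disagreement, 0.17, above 0 in 10, at a median signal of 16.1. Stmn2, a microtubule regulator of neurons, had averages of 9.13 and 14.4 and peaks of 28 and 44.

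The lists of housekeeping genes differed among themselves. The medians were 0.0024 and 0.097 over 62 cytosolic ribosomal protein promoters, -0.044 and 0.020 over 32 spliceosome promoters, of which 9 had an average above 0, and 0.040 and 0.15 over 36 cell cycle promoters, against 0.035 and 0.136 over all promoters. Genes that deposit or remove H2A.Z had medians of 0.0077 and 0.056 over 18 promoters, and none was past 1.5-fold. H2afz, which encodes H2A.Z itself, had averages of 32.1 and 32.9 and peaks of 138 and 141. Anp32e had averages of 33.0 and 32.3 and peaks of 118 and 107 at its start. Neither passed 1.5-fold in either measure. Vps72, a subunit that hands H2A.Z to the exchange complexes, had averages of 27.1 and 27.4 and peaks of 84 and 105, and Yeats4, a histone reader in those complexes, averages of 49.4 and 49.6 and peaks of 167 and 147. The 18 subunit genes of the phosphatase PP2A, which ANP32E inhibits, had medians of -0.053 and 0.071, and none was past 1.5-fold.

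**Figure D5:**
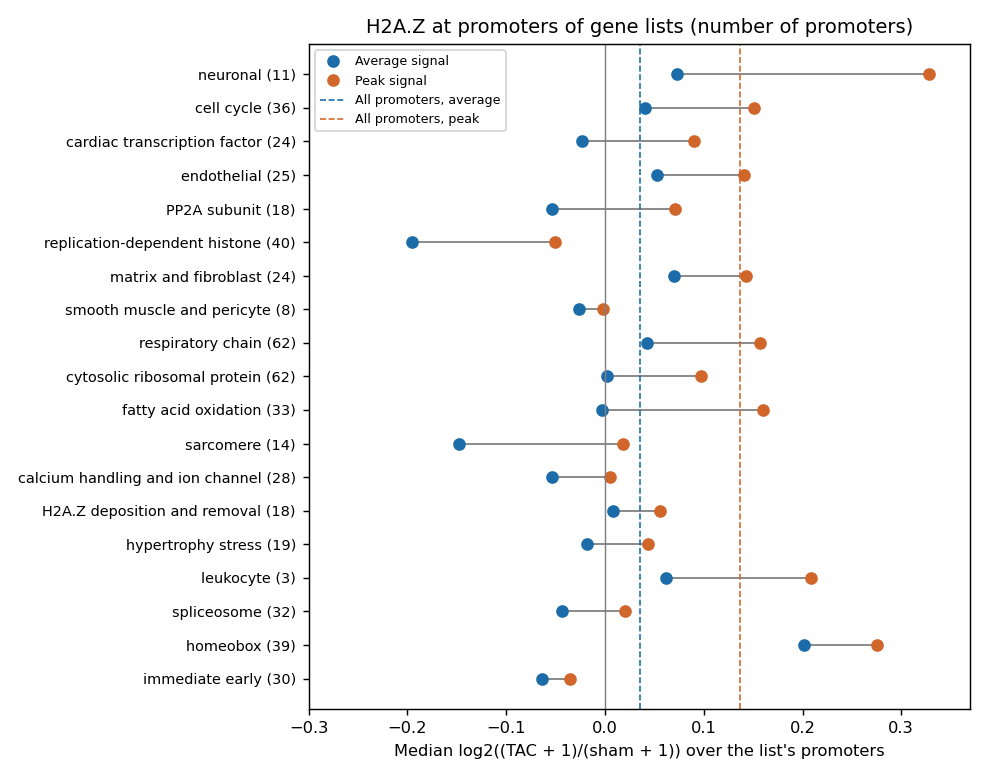
Median log2 ratio of TAC over sham by the average (blue) and the peak (orange) over the promoters of each gene list, ordered by the median disagreement, with the number of promoters in brackets and dashed lines at the medians of all 13763 promoters. The peak median lies to the right of the average median in all 19 lists as deposited, and in 11 after each measure is centred on its median.

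H2A.Z regions that overlapped an ANP32E region by at least 1 bp, 7198 in all, had medians of -0.020 for the average and 0.081 for the peak. The other 23900 had 0.037 and 0.10. The disagreement was 0.099 and 0.075. By the average, 1 of the overlapping regions was higher and 76 (1.06%) lower, against 539 higher and 1142 (4.78%) lower of the others. The overlapping regions had a median signal of 27.7 against 13.8. An island was held by 64.7% of them against 26.1%, and 96.0% against 71.1% were called in both libraries. Among regions without an island, 76 (2.99%) of the overlapping and 1137 (6.44%) of the other regions were lower. Whether overlap, island or level accounts for the difference was not tested.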

How the data were processed

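Chromatin immunoprecipitation sequencing of 2 H2A.Z libraries, 1 per condition, was analysed. Per the submitters' processing notes, BWA, SICER and mm10 were used; no source used here gives versions or settings. Per the file headers, the deposited table merges intervals called in either library into regions, each with an average and a peak signal, the calls, the length, CpG islands and nearby genes. Average and peak signal were taken from the deposited table without rescaling. How it was scaled between libraries, and whether the input was used, no source used here states. The depth is therefore unknown, and no interval for counting error can be stated.

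Ratios were log2((TAC + 1)/(sham + 1)), with a pseudocount of 1, which lowers the ratio of weak signals and acts more on the average than on the larger peak. The 1.5-fold threshold was applied to both. A promoter was the listed region nearest to a gene's start, over it or within 1000 bp, and listed distances were taken from the region's midpoint. The design stated within 1000 bp for the lists, and the wider form was used throughout. With 1 library a side no test was made and no p-value is given, and "higher" and "lower" describe these libraries.

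Members and gene lists (679 entries) were chosen with earlier results of these data known. Named genes were the 6 highest and 6 lowest by peak ratio and by disagreement among the stronger 50% of promoters without predicted loci, the 6 largest of both measures higher, both lower and opposite signs among the stronger regions, the 4 longest regions, the 2 ends of each list and 17 fixed genes. Ends of lists and fixed genes are named in part. Further genes past 1.5-fold in a list (Trdn, Hoxd1, Hoxb5, En1, Dlx2, Emcn, Col6a3 and Stmn2) were named after their values were seen, and so were the 5 sequences picked. A comparison of CG content between classes of promoters was void, since only 71.1% of promoter genes matched a RefSeq window touching their region, under the 80% required. The counting of classes was tested on simulated data. Alternatives were pseudocounts of 0.1 and 5, a 2-fold threshold, the stronger 50% of regions, regions called in both libraries, centred ratios, autosomes and promoters within 5000 bp. Python 3.11.15, numpy 2.4.6, pandas 2.3.3 and matplotlib 3.10.9 were used.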

Additional observations from a re-analysis of the deposited data

How the results depend on the processing

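No paired analysis was possible because each condition has 1 library and no test was made. The same lack of replicates means that no library can be left out. An alternative was taken to move a median where it differed by over 0.05 on the log2 scale, a limit set at 0.1 at first and tightened after the medians had been seen, and a count where it differed by over 1.5 times. Counts of regions moved most. With a pseudocount of 5 the average gave 102 higher and 231 lower regions, the peak 1165 and 828, and 1876 were past 1.5-fold in 1 measure only. At 2-fold the same counts were 22, 52, 158, 122 and 274. In the stronger 50% of regions they were 31, 19, 396, 86 and 466, with 4152 of opposite sign. In regions called in both libraries they were 71, 246, 845, 417 and 1305. With ratios centred on their medians the peak gave 1024 higher and 2026 lower regions, 33.6% higher against 56.6% as deposited, and the median disagreement was 0.0028, which follows from the centring itself. The median in regions under 1000 bp became -0.0023 with a pseudocount of 5. The number of list entries past 1.5-fold was 0 by the average with a pseudocount of 5 and in the stronger 50% of promoters, and 2 by the peak in the latter. The 11 lists with a higher peak median after centring come from an alternative chosen after seeing the data. Of the values that summarise regions, classes and lists, 107 alternatives stayed within the limits and 28 did not. Of those for named genes 156 did and 111 did not, the latter including the change from average to peak. Apart from regions under 1000 bp, the median disagreement of the classes ran only from 0.057 to 0.10. A limit of 0.05 therefore says little about differences between classes, and centring was not applied to them. Counts of opposite signs cannot move with the pseudocount. No alternative changed the sign of a named gene's average ratio that was past 1.5-fold, but a change of pseudocount cannot do so. The change to the peak could, but most of these regions were chosen for passing 1.5-fold in both measures. Classes with under 20 regions gave no value, and the 2-fold threshold does not bear on signs or medians. Depth is unknown, so it is not possible to say which ratios counting error alone could give. At weak regions the spread was widest.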

Other observations

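The values of the average were checked for whole multiples, to learn how it was made. Over 13230 regions shorter than 3000 bp, 7 bin widths were tried for which the average times the number of bins would be whole in both libraries. With 2 ways of counting bins, a width of 32 bp gave 71.3% whole and 31 and 33 bp gave 4.37% and 7.19%. With 6 ways of counting, 31, 32 and 33 bp gave 65.9%, 74.2% and 70.5%, so the width could not be told from the values, and the unit of the signal is given only as deposited.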
